A study of Homo sapiens with 18 samples.

Results

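A set of 234 genomic regions carried RING1B together with monoubiquitinated histone H2A (H2Aub1) and had no EWSR1-FLI1 peak, out of 1587 reproducible RING1B regions (14.7%) in the Ewing sarcoma cell line A673. The regions were chosen by the measured peaks themselves. Peaks of both RING1B replicates that shared at least 1 bp were merged, and a merged region was kept if both replicates contributed to it. H2Aub1 peaks were treated the same way, and a RING1B region was a member when it touched a reproducible H2Aub1 region and no peak of EWSR1-FLI1. Of the other RING1B regions, 811 touched EWSR1-FLI1 alone, 81 touched both EWSR1-FLI1 and H2Aub1, and 461 touched neither.

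The series comprised 18 samples from ChIP-seq (sequencing of immunoprecipitated chromatin), all from A673, an established line that carries the EWSR1-FLI1 fusion oncoprotein. Peak lists of 5 samples were used: RING1B in 2 replicates, H2Aub1 in 2 replicates and EWSR1-FLI1 in 1 sample. All 5 came from the same line with no treatment named in the labels, and the labels do not say that replicates were separate cultures, so their spread may be technical. Inputs, BMI1, CBX7 and the RING1B knockdown samples with their controls were not analysed here. The lists hold 2573 and 3945 RING1B peaks, 26423 and 10268 H2Aub1 peaks, and 2145 EWSR1-FLI1 peaks. Sequencing depth behind these lists is unknown, and EWSR1-FLI1 has no replicate check.

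RING1B is the catalytic E3 ubiquitin ligase of Polycomb repressive complex 1 and places a single ubiquitin on histone H2A. Polycomb complexes are known for holding developmental regulator genes silent, often over broad chromatin domains that can span several neighbouring genes. Canonical forms of the complex contain a CBX protein and BMI1 or a related PCGF protein, whereas variant forms lack CBX. EWSR1-FLI1 joins part of EWSR1 to the ETS DNA-binding domain of FLI1 and is the driver fusion of most Ewing sarcomas. Because CBX7 and BMI1 peaks were not analysed here, the 234 regions are described by their RING1B and H2Aub1 peaks, and their assignment to a canonical complex was not tested. An hg19 gene annotation was not used here, so regions are named by hg19 coordinates and cytoband.

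RING1B scores of the members spanned nearly the whole range found over all reproducible RING1B regions, which ran from near 50 in both replicates up to 3100 in replicate 1 and 3198.9 in replicate 2. The authors' score per peak has no stated scale, so it is read only as a ranking inside its own list. In replicate 1 the members scored 51.01 at the lowest, 209.56 at the median and 3100 at the highest. In replicate 2 they scored 50.88, 174.09 and 3137.47. All 1587 regions had medians of 122.98 and 125.67. Medians were 153.99 and 143.05 for the 811 with EWSR1-FLI1 alone and 80.68 and 89.96 for the 461 with neither. The 81 with both had 104.89 and 131.62. Mean percentile rank over both replicates was used to order all 1587 regions. The highest 20 held 13 members, 5 regions with EWSR1-FLI1 alone and 2 with neither. The highest 100 held 37 members, 53 regions with EWSR1-FLI1 alone and 10 with neither, whereas members were 14.7% of all 1587 regions. These counts describe the peaks that chose the regions and carry no test. The members' ranks were similar in both replicates, with a Spearman correlation of 0.812 across the 234 regions, which share 1 cell line and the same pair of lists.

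**Figure D1:**
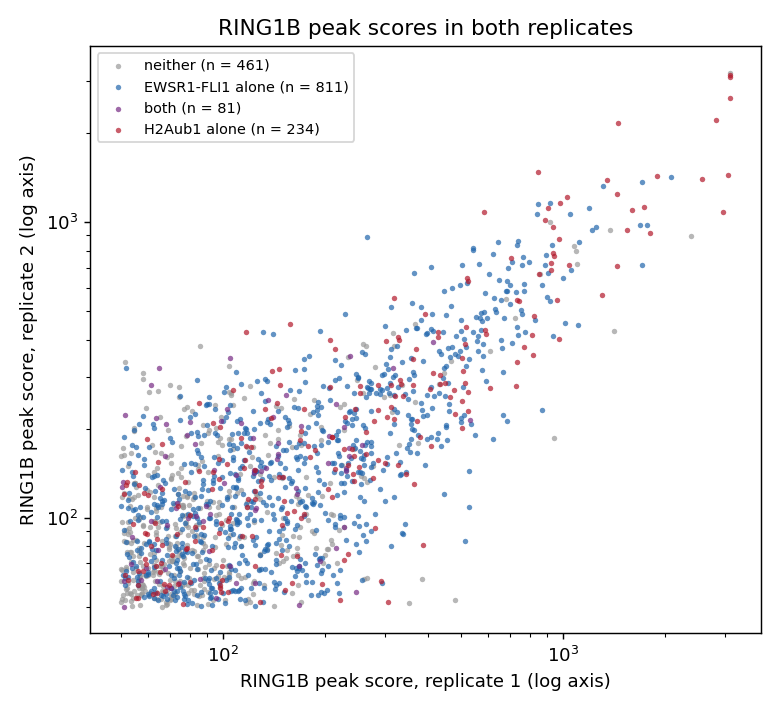
RING1B peak score in replicate 1 (x axis) and replicate 2 (y axis), both on log axes with the authors' unscaled score, for 1587 reproducible RING1B regions coloured by what they touch. The 234 regions with H2Aub1 alone (red) run from the lowest scores near 50 to the upper right corner, where 13 of the 20 highest-ranked regions belong to them.

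The highest-ranked member lay at 11p13 (chr11:32455248-32466568) with RING1B scores of 3100 in replicate 1 and 3137.47 in replicate 2. The next, at 7p15.2 (chr7:25899461-25908325), scored 3100 in both replicates. At 18q11.2 (chr18:19745201-19748616) the scores were 3100 and 2615.6. A score of exactly 3100 was found for 3 members in replicate 1 and 1 member in replicate 2, so the order among the strongest members is not resolved in replicate 1. The 14q24.3 region (chr14:74706640-74710364) followed with 2826.34 and 2217.45. The region at 15q26.3 (chr15:99162598-99168185) had 3050.99 and 1444.49, and the one at 2q31.1 (chr2:175201702-175206499) had 2561.88 and 1399.58. At 1p33 (chr1:47695438-47697924) they were 1447.23 and 2163.6. All of these regions were far above the members' medians in both replicates. Others among the 20 highest-ranked members were at 7p22.3 (chr7:1275344-1280199), 7q31.31 (chr7:120969483-120976310), 6q23.2 (chr6:134210928-134215571), 2p11.2 (chr2:88752006-88753991), 8p23.1 (chr8:11538360-11542409) and 12p13.32 (chr12:4375404-4378321). The remainder were at 13q32.1 (chr13:95357529-95363905), 7q21.2 (chr7:92466291-92470023), 2p21 (chr2:45032757-45036269), 12q23.1 (chr12:99284883-99288698), 7q31.1 (chr7:113721817-113725378), 3q22.3 (chr3:138661913-138664252) and 2p13.1 (chr2:74740235-74741885). Of these 20 regions, 15 were 3 kb or wider, 6 belonged to a cluster of members and 7 lay entirely inside H2Aub1.

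H2Aub1 scores varied widely among the regions ranked highest by RING1B. The 18q11.2 region had H2Aub1 scores of 1836.4 and 483.93, and the 14q24.3 region had 2131.79 and 639.72. By contrast, the 15q26.3 region had 94.71 and 82.97, and the 7q21.2 region had 50.51 and 53.44, close to the floor of about 50 in each list. Some of the 5 members with the lowest RING1B rank had high H2Aub1 scores. The lowest, at 2p13.2 (chr2:73142911-73143817), had RING1B scores of 55.68 and 53.63 but H2Aub1 scores of 2390.06 and 267.82. Its neighbouring member (chr2:73145246-73148270) had the same replicate 1 H2Aub1 score of 2390.06, with RING1B scores of 848.18 and 664.68. The second lowest, at 9q34.13 (chr9:135459881-135460935), had 56.38 and 53.57 for RING1B with 1940.97 and 994.35 for H2Aub1. The adjacent member (chr9:135461001-135462880) had the same H2Aub1 scores in both replicates, with RING1B scores of 319.89 and 258.16. The replicate 1 score at 2p13.2 and both scores at 9q34.13 are therefore shared with stronger RING1B neighbours and are not particular to the low-ranked regions. In replicate 2 the neighbouring 2p13.2 member had a higher H2Aub1 score, 429.46. The other low-ranked regions were at 8q13.1 (chr8:67875647-67876809), 7p15.2 (chr7:27251111-27252183) and 17q25.3 (chr17:77774046-77774783), whose H2Aub1 scores in replicate 1 were 680.62, 174.69 and 228.56. Across members, RING1B and H2Aub1 scores had a Spearman correlation of 0.136 in replicate 1 (233 regions) and 0.115 in replicate 2 (206 regions), and H2Aub1 scores of both replicates correlated at 0.679 (205 regions). These points are not independent, since neighbouring members can touch the same H2Aub1 region and carry the same score. At 10q26.13, for example, all 3 members had 2190.82 in replicate 1. In all, 221 H2Aub1 regions touched the 234 members.

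Members were wide. The narrowest spanned 738 bp, the median was 1915 bp and the widest was 14545 bp, and the quartiles were 1257.75 and 3075.75 bp. Regions with EWSR1-FLI1 alone had a median of 1272 bp, regions with neither 1221 bp, and regions with both 1157 bp. Of the 234 members, 63 (26.9%, 95% Wilson interval 21.6 to 32.9%) were at least 3 kb wide, beside 6.24% of all 1587 RING1B regions. The counts were 8 of 811 for EWSR1-FLI1 alone (0.986%), 28 of 461 for neither (6.07%) and 0 of 81 for both (Wilson upper limit 4.53%). A count of 0 allows a share of up to 3.70% when the limit is set at 3 counts of the total. Intervals cover counting error over regions only, and widths come from the peaks that chose the members, so they are given without a test. The 3 kb limit came from an earlier analysis of these data. Merging can widen a region, and regions built from several peaks of a replicate were more common among members than in the other classes. A single peak in each replicate gave 203 of the 234 members. The counts were 805 of 811 for EWSR1-FLI1 alone, 454 of 461 for neither and 81 of 81 for both. Single peaks that are offset between replicates also merge into a wider region. A peak of 3 kb or more was present in both replicates at 30 members (12.8%), at 4 regions with EWSR1-FLI1 alone (0.493%) and at 13 with neither (2.82%).

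Median width and the share of 3 kb or more were lower when a single RING1B replicate was required, whichever it was. Requiring only RING1B replicate 2 gave 444 regions with a median of 1142 bp and 9.23% of them at 3 kb or more. Requiring only RING1B replicate 1 gave 337 regions with a median of 1325 bp and 11.6% at 3 kb or more. Of the 234 members, 230 and 231 touched a region of these longer sets, so nearly all members stayed and other regions were added to them. The other classes were not recomputed with a single RING1B list. Whether members are wider than those classes under that setting was therefore not tested.

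**Figure D2:**
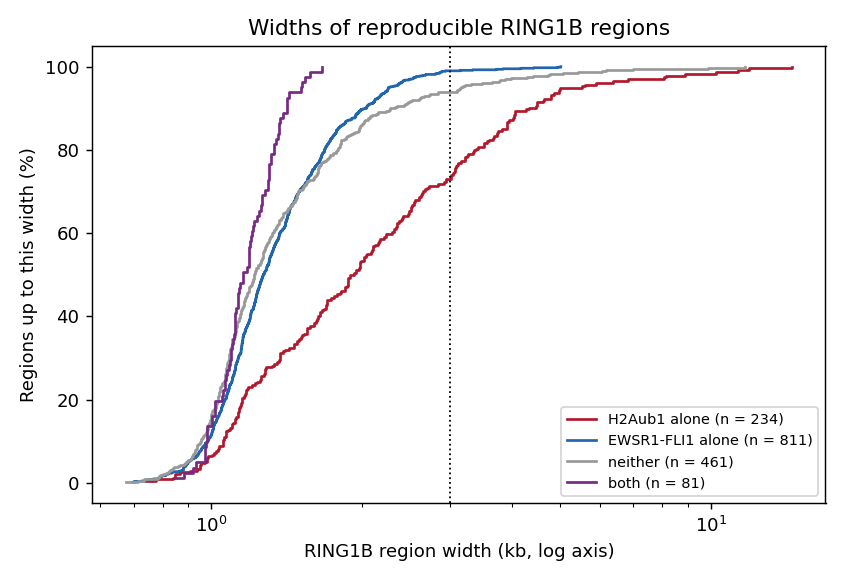
Cumulative share of RING1B regions (y axis, percent) up to a given width (x axis, kb, log axis) by what they touch; the dotted line marks 3 kb. At the quartiles and the median the curve for H2Aub1 alone lies to the right of the others, with a median of 1915 bp. It leaves 26.9% of regions beyond the line, and at the narrow end it starts at 738 bp, below 845 bp for both.

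The widest member lay at 11p13 (chr11:31841786-31856330) and spanned 14545 bp. Each replicate had 2 RING1B peaks there, the wider spanning 11770 bp in replicate 1 and 10091 bp in replicate 2. At 7p21.2 (chr7:15719483-15731426) the region spanned 11944 bp as 1 peak of replicate 1. Replicate 2 had 2 peaks there, the wider of 5432 bp. The other 11p13 region, ranked highest by score, was 11321 bp wide with peaks of 10437 and 11187 bp. The widest peaks of the replicates were therefore alike in width at both 11p13 regions and unlike at 7p21.2. The joint span of the replicate 2 peaks at 7p21.2 was not measured. At 11p14.1 (chr11:30602602-30612828) the 10227 bp region was 1 peak of replicate 2, with modest scores of 138.85 and 217.22. Replicate 1 had 2 peaks there, the wider of 4475 bp. The remaining members among the 10 widest were the 7p15.2 region of 8865 bp, 10p12.2 (chr10:22625587-22633706) of 8120 bp, 11p11.2 (chr11:43642906-43650954) of 8049 bp, 7q31.31 of 6828 bp, 13q32.1 of 6377 bp and 1q41 (chr1:218336335-218342225) of 5891 bp. Widths and scores rose together across members, with Spearman correlations of 0.781 in replicate 1 and 0.754 in replicate 2. Both values come from the same peaks, so they are not independent.

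Of the members wider than 8 kb, 4 lay within one stretch of chromosome 11 (chr11:30602602-43650954), and the others at 7p21.2, 7p15.2 and 10p12.2. Each RING1B class with regions in the stretch had a higher median width there than elsewhere. The stretch was drawn after seeing the data, from the first to the last of the 4 chromosome 11 members, so their own width inside it is fixed by that choice. The 4 members inside had a median width of 10774 bp, against 1888.5 bp for the other 230. The 10 regions with EWSR1-FLI1 alone inside it had a median of 2394 bp against 1268 bp elsewhere, and the 6 with neither had 3126 bp against 1217 bp. What this stretch shares was not tested. Leaving it out changed the share of members of 3 kb or more from 26.9% to 25.7%.

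H2Aub1 reached beyond most members. The widest H2Aub1 region touching a member ranged from 745 to 29707 bp, with a median of 5660.5 bp, and it was wider than the RING1B region at 207 of 234 members. For the 81 RING1B regions touching both H2Aub1 and EWSR1-FLI1, that width had a median of 2978 bp and reached 18592 bp. H2Aub1 covered a median of 46.1% of those regions, against 100% of members. At 118 members the RING1B region lay entirely inside H2Aub1, and at 186 at least 50% of it was covered. Of the 234 members, 59 touched an H2Aub1 region of 10 kb or more, a count not made for other RING1B regions. The widest was at 9q33.3 (chr9:126778406-126782668), where 29707 bp of H2Aub1 enclosed a RING1B region of 4263 bp. At 11q13.4 (chr11:72019200-72020314) 28655 bp enclosed 1115 bp, and at 16q24.1 (chr16:86547236-86548700) 25260 bp enclosed 1465 bp. A pair of members at 10q24.31 (chr10:102506548-102507820 and chr10:102985011-102987036) lay inside H2Aub1 regions of 24160 and 21379 bp. The RING1B scores were 156.95 and 452.48 at 9q33.3, 154.11 and 103.55 at 11q13.4, and 63.74 and 68.56 at the second 10q24.31 region.

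Median coverage was lowest among the widest RING1B regions. The 80 members under 1500 bp had a median coverage of 100%, as had the 91 members from 1500 bp to under 3 kb, and the 51 members of 3 to 5 kb had 99.4%. The 12 members of 5 kb or more had a median coverage of 69.1%, and 1 of them lay entirely inside H2Aub1. Their H2Aub1 regions were no narrower, with a median of 6919.5 bp against 6860 bp for members of 3 to 5 kb and 3977.5 bp for those under 1500 bp. Among those 12, the lowest coverage was at 10p12.2, where H2Aub1 covered 9.62% of a RING1B region of 8120 bp. Across members, RING1B width and H2Aub1 width had a Spearman correlation of 0.239 (234 regions).

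**Figure D3:**
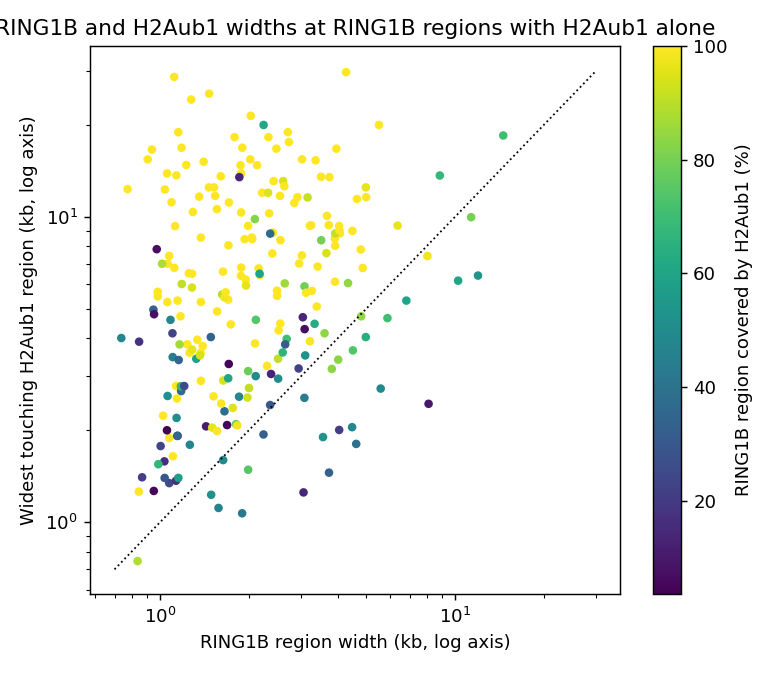
Width of each member's RING1B region (x axis, kb, log axis) against its widest touching H2Aub1 region (y axis, kb, log axis), with colour giving the percent of the RING1B region covered by H2Aub1 and the dotted line marking equal width. Most points (207 of 234) lie above the line, and several of the widest RING1B regions lie below it with partial coverage.

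H2Aub1 was seen at the RING1B region itself in both replicates for 205 of 234 members (87.6%), beside 17.3% of all RING1B regions. That share follows from how the members were chosen and is not a result about them. At 28 members only replicate 1 had an H2Aub1 peak touching the RING1B region, and at 1 member only replicate 2 did, and there the other replicate's peak joined the same H2Aub1 region outside the RING1B region. Replicate 1 had the longer H2Aub1 list. The same list bears on the regions left out, since 69 of the 461 regions with neither mark had an H2Aub1 peak of replicate 1 alone, 3 had one of replicate 2 alone, 3 had separate peaks of both, and 386 had none.

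The smallest H2Aub1 overlap among members was 37 bp, at 17q25.3 (chr17:79392829-79393882), with RING1B scores of 79.79 and 102.27. The next was 49 bp at 20q13.2 (chr20:53093474-53094424). Just outside, the nearest region without EWSR1-FLI1 lay 10 bp from H2Aub1 at 7q32.3 (chr7:130418973-130424042) and was a strong one, 5070 bp wide with scores of 1379.11 and 940.34. The next outside lay 202 bp away at 19q13.33 (chr19:49621807-49622624) with scores of 60.05 and 67.42. On the EWSR1-FLI1 side, the member nearest to a peak of the fusion was 925 bp away at 7p21.1 (chr7:17315844-17318057). The region left out by the smallest fusion overlap shared 568 bp with it, at 6p21.31 (chr6:33738745-33739878).

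Distances from members to the nearest EWSR1-FLI1 peak varied widely. The median gap was 574441 bp, the quartiles were 182710.5 and 1430948 bp, and 86 members had no fusion peak within 1 Mb. For regions with neither mark the median gap was 307871 bp. No comparison with randomly placed regions was run. A fusion peak lay within 50 kb of 21 members (8.97%), beside 62.5% of all RING1B regions, a background that counts the 892 regions touching the fusion. Among regions with neither mark, 79 of 461 (17.1%) had a fusion peak within 50 kb. Both sets were chosen for touching no fusion peak, so these shares come from a list that the rule used and are given as a description.

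Some members occurred in groups. Members with gaps of at most 50 kb were chained, which placed 92 of 234 (39.3%) in 38 clusters and left 142 alone. This limit came from an earlier analysis of these data. Some neighbours nearly abutted, such as chr7:1275344-1280199 and chr7:1280213-1282389, or chr10:124894598-124899574 and chr10:124899587-124901048. Whether such neighbours are separate sites or pieces of 1 domain was not tested, and no gap limit under 10 kb was tried. Chained within their own class, 17.1% of the regions with EWSR1-FLI1 alone and 11.9% of those with neither were in a cluster, although those classes held more regions. With all 1587 RING1B regions chained together, whatever they touched, 429 (27.0%) were in a cluster. Of the 38 clusters, 26 were pairs and 12 had 3 or more members. No other reproducible RING1B region and no EWSR1-FLI1 peak lay within the span of any of the 38 clusters. Of the 63 members of 3 kb or more, 27 were in a cluster.

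The largest cluster lay at 7q36.3 (chr7:155246783-155306515) and had 5 members over 59733 bp. Its RING1B scores were uneven. The fourth member (chr7:155298089-155302151) was the highest in both replicates, with 1042.32 and 715.87. The lowest differed between replicates, with 58.63 at the third member in replicate 1 and 74.52 at the first member in replicate 2. The H2Aub1 score in replicate 1 was 1894.08 at the third member and 596.23 at the member with the highest RING1B scores, and H2Aub1 covered 48.7% of the span. At 8p23.1 (chr8:11538360-11572785) 4 members spanned 34426 bp, of which H2Aub1 covered 89.4%. There the RING1B scores were highest at the first member, with 1437.62 and 1239.69, and lowest at the last, with 78.58 and 79.16. The 4 members at 7p21.1 (chr7:17315844-17332948) spanned 17105 bp, were 87.0% covered by H2Aub1 and scored between 122.11 and 299.72 in replicate 1 and between 86.85 and 153.35 in replicate 2.

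The other 9 clusters had 3 members each. A pair of them lay at 2q31.1, one (chr2:175194745-175206499) holding the strong region with scores of 2561.88 and 1399.58, the other (chr2:176939799-176950210) peaking at 974.38 and 878.4 in its middle member. In both clusters the same member was the strongest in each replicate. At 7p15.2 (chr7:27223199-27252183) the middle member had 286.13 and 230.62 and its neighbours 56.28 and 65.8 on one side and 56.14 and 59.08 on the other, while H2Aub1 covered 81.9% of the 28985 bp. At 18q11.2 (chr18:19745201-19759659) the first member reached 3100 and 2615.6 and the other two stayed at or below 304.28 and 219.48. H2Aub1 covered nearly the full span at 2p13.2 (chr2:73142911-73154154, 100%), 14q13.3 (chr14:36971974-36991069, 99.3%) and 10q26.13 (chr10:124894598-124904473, 98.2%). Coverage was lower at the second 2q31.1 cluster (64.1%), at 8q13.1 (chr8:67871017-67876809, 65.9%) and at 3q24 (chr3:147071488-147127273, 37.7%), where the members were spread over 55786 bp. H2Aub1 covered more than 80% of the span in 8 of the 12 clusters of 3 or more, although RING1B scores differed within them.

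**Figure D4:**
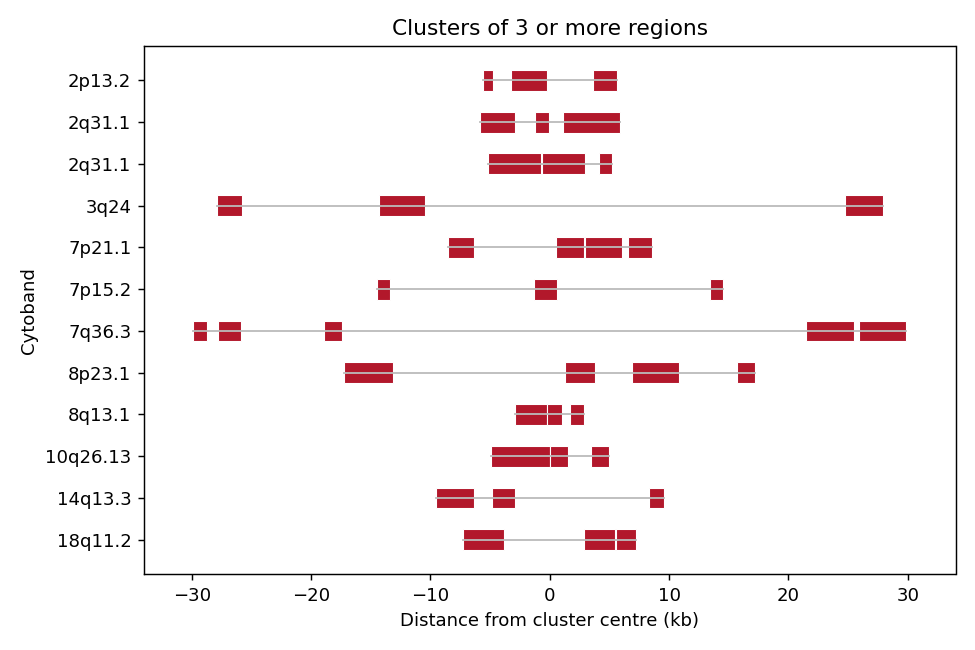
Positions of members (red bars, to scale) in the 12 clusters of 3 or more, drawn as distance from the cluster centre in kb (x axis), 1 row per cluster labelled by cytoband; grey lines join the first and last member. The 7q36.3 cluster of 5 members and the 3q24 cluster are the longest, at 59733 and 55786 bp.

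Members lay on 21 chromosomes. The most were on chromosome 2 with 27 of 145 RING1B regions, chromosome 7 with 26 of 103, chromosome 10 with 24 of 87 and chromosome 6 with 20 of 115. The highest share was 32.5% on chromosome 15 (13 of 40) and a low one was 2.94% on chromosome 12 (2 of 68). Chromosomes 19 and 22 had 0 members among 30 RING1B regions, which allows a share of up to 10.0% by the same limit of 3 counts. Chromosome X had 1 of 21. The share of members among RING1B regions thus varied widely between chromosomes, and the chromosome 12 and 15 values rest on few regions.

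Position relative to bands was not used in choosing the members. Cytobands that stay light in Giemsa staining are the gene-rich, GC-rich bands. Of the members, 129 of 234 (55.1%) lay in a light band, beside 44.8% of all RING1B regions. The share was 39.2% for EWSR1-FLI1 alone, a difference of 15.9 percentage points (95% Newcombe interval 8.67 to 23.0). Against regions with neither the difference was 6.97 points (-0.888 to 14.7), and against regions with both it was 3.28 points (-9.06 to 15.7), so neither of these intervals leaves out 0. With each cluster counted once by its highest-ranked region, the shares were 53.3% of 180 member loci, 39.7% of 735 loci with EWSR1-FLI1 alone and 49.1% of 432 with neither. The light-band share was higher in members than in regions with EWSR1-FLI1 alone on 11 of the 16 chromosomes that had at least 5 members. Within 10 Mb of a chromosome end lay 37 members (15.8%), beside 12.2% of all RING1B regions. The difference was 5.58 points from EWSR1-FLI1 alone (0.873 to 11.1) and 2.80 points from neither (-2.53 to 8.71). Regions with both marks had a share of 16.0%, a difference of -0.237 points (-10.6 to 8.04). These intervals treat regions as independent, which neighbouring regions are not.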

How the data were processed

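Peak lists of RING1B (2 replicates), H2Aub1 (2) and EWSR1-FLI1 (1) in A673 were used as deposited, 1 list per sample. Per the submitters' processing notes, Bowtie and hg19 were used, and mm9 is also named with no role, without a version for Bowtie. The name field of the peaks starts with MACS; for that caller, version, filters and input control are not stated in headers or labels. Each peak has a score deposited by the authors on an unstated scale, with no read counts, so depth and its precision are unknown. Replicates were treated as called separately. The track lines at the head of the lists differ between replicates of RING1B and of H2Aub1 in terms that neither they nor the labels explain, so the replicates may not have been prepared or called alike.

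Regions were merged and overlapped in python 3.11.15 with pandas 2.3.3 and numpy 2.4.6, and drawn with matplotlib 3.10.9. The merging and overlap code was tested on simulated data. A region's score in a replicate was the highest of its peaks. Cytobands and chromosome lengths of hg19 came from the R package circlize 0.4.16. Intervals of shares are 95% Wilson intervals and differences 95% Newcombe intervals. No test across regions was run, because the lists chose the members. The members and lists were chosen with earlier results of these data known. The 3 kb limit of width and the 50 kb limit of cluster gaps came from an earlier analysis of these data. Cytoband and chromosome-end shares, and 2 of the alternatives, were added after seeing the data. Regions named are the 20 highest by mean percentile rank of RING1B score, the 10 widest, all clusters of 3 or more members, the 5 with the widest H2Aub1 region and the 5 lowest-ranked, plus those at the limits of the rule.

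An hg19 genome and annotation were not used here. The planned distance to transcription starts, CpG content, nearest genes, gene lists and sequences of the members were therefore not run or printed. Positions of some regions were once compared with GRCh38 promoters to look for gene names; this compares different builds, so it was dropped and nothing from it is used.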

Additional observations from a re-analysis of the deposited data

How the results depend on the processing

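The number of members, their median width, the share of 3 kb or more and the share in a cluster were recomputed under each alternative, except that the cluster gaps bear on the cluster share alone. The number of members, the share of 3 kb or more and the median width all depended on the lists used. With at least 50% of the shorter region shared there were 193 regions, and the median width was 2026 bp. With the highest-scoring 50% of each list there were 156 regions, the median was 2358.5 bp, and 34.6% of regions were 3 kb or more. With the union of replicates 829 regions had a median of 1141 bp and 9.77% were 3 kb or more. Requiring an H2Aub1 peak of each replicate at the region, an alternative chosen after seeing the data, gave 1986 bp. Leaving out each RING1B or H2Aub1 replicate gave 212 to 444 regions, medians of 1142 to 1986 bp, 9.23 to 29.2% at 3 kb or more and 38.4 to 48.7% in a cluster. In a replicate block, with RING1B and H2Aub1 lists paired by number, pair 1 gave 462 regions, 1293.5 bp and 10.4%, and pair 2 gave 400 regions, 1147 bp and 10.0%. The labels do not say what a shared number marks. Of the 234 members, 232 and 201 touched a region of these pairs. By construction, more regions enter where fewer lists are required. Touching within 1 kb, autosomes only and leaving out the chromosome 11 stretch (chosen after seeing the data) kept these 4 values within their interval, replicate spread or 1.5 times the count. Cluster gaps of 10 and 200 kb gave cluster shares of 34.2 and 45.3%, within the interval. The alternatives for distance to transcription starts and for CpG content were not run. Unknown depth, a single EWSR1-FLI1 list and unequal H2Aub1 lists limit the membership itself.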
